A study of Danio rerio with 12 samples.

Results

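The genes described here encode the machinery that keeps chromatin silent, namely the Polycomb complexes, the enzymes and readers of heterochromatin, and the enzymes of DNA methylation. They were 42 zebrafish genes chosen by name and measured in trunk neural crest, a population of the embryo that arises along the top of the neural tube, migrates out and gives pigment cells, peripheral neurons and glia. Names were matched to the gene rows of the deposited table ignoring case, and 23 genes matched directly. Another 18 matched after the final paralog letter was removed, because the name table often gives both zebrafish copies of a gene the same human-style symbol. The gene ring1 matched no row. This gave 41 rows of 25878 in all, of which 14 share 7 symbols in pairs, and such pairs are told apart below by their Ensembl identifier. Which of a pair is the a or the b copy was not resolved, and where copies are near-identical the counting may have shared reads out between them.

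RNA was sequenced from 12 libraries of 20 sorted cells each. There were 8 libraries of migratory crest at 24 hours after fertilisation, taken beside somites 10 to 15, and 4 of premigratory crest at 16 hours. Embryos of both groups carried the transgene sox10:H2B-Dendra2, in which the sox10 promoter drives a photoconvertible nuclear protein, and both are labelled as control for treatment. Per the labels, 8 embryos were photoconverted for each population. Cells of the migratory stage were marked as leaders or followers when they were converted, but the labels do not say which library holds which, so the 8 libraries form 1 group. The 2 groups differ in age as well as in migration, and these cannot be told apart.

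Polycomb repressive complex 2 (PRC2) methylates histone H3 through EZH2 or EZH1, held together by EED and SUZ12, and JARID2 helps bring it to its targets. Polycomb repressive complex 1 (PRC1) attaches ubiquitin to histone H2A through RNF2 or RING1 paired with a PCGF protein such as BMI1, and its CBX subunits bind the mark left by PRC2. Heterochromatin is marked on H3K9 by SUV39H1, SETDB1 and the EHMT enzymes and read by the HP1 proteins CBX1, CBX3 and CBX5, while DNMT1 with UHRF1 copies DNA methylation after replication and DNMT3 enzymes add it anew. In mouse, Ezh2 is needed in the neural crest for the facial skeleton, and zebrafish without rnf2 lack head cartilage.

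Summed over genes, the deposited values came to 17765775 to 24227327 in migratory and 10735983 to 21711424 in premigratory libraries. A value of 10 or more was reached by 10559 ± 1058 genes (SD, n = 8) per migratory library and 5489 ± 1547 genes (SD, n = 4) per premigratory library, a difference with p = 0.00202 in a two-sided exact permutation test, which is the smallest value the design can give. With a threshold of 1 in place of 10 the difference did not pass (15397 ± 2563 in migratory and 11035 ± 4629 in premigratory libraries, exact p = 0.0646). SOX10, whose promoter drives the reporter, was at 1225 to 22646 in migratory and 3769 to 16200 in premigratory libraries. The crest transcript crestin stood at 135 in migratory replicate 5 and at 5.97 in premigratory replicate 1. In that premigratory library the crest genes FOXD3, zeb2a and TFAP2C were at 2522, 763 and 2573. The crest genes TFAP2A, ETS1 and snai1b were at 3.3, 1.94 and 7.09 there, and the PAX3 and SOX9 rows at 0 to 0.824. The 12 epidermis markers took 0.00999% to 3.73% of the total in migratory libraries and 0.084% to 9.84% in premigratory ones, the highest in premigratory replicate 1. The 9 blood markers took 8.46% in migratory replicate 5 and at most 0.067% in any other library. The 11 muscle markers took 0.00454% to 4.46% in migratory and 0.00102% to 0.0238% in premigratory libraries, and 3 of the 10 tested were called higher in migratory libraries, as were 3 of 11 crest, 1 of 5 blood and 0 of 11 epidermis markers (12.4% of all tested genes). Neural tube, endothelium and notochord markers took at most 0.106% anywhere, a share inside the range of the crest markers given below. The neural tube marker ELAVL3 was at 13147 and 12599 in migratory replicates 2 and 4. It was at 7726 in premigratory replicate 3 and at 634 or less in the other libraries. The neural tube markers SOX3 and her4.1 were at 6447 and 7299 in premigratory replicate 1, and at most 4427 and 556 in migratory libraries. The endothelial gene FLI1 reached 2263 in migratory replicate 5. It was at 6960, 4172 and 437 in premigratory replicates 2 to 4, where the endothelial receptor kdrl was at 8.66 or less. The 12 crest markers took 0.0356% to 0.294% in migratory and 0.0444% to 0.153% in premigratory libraries. The part of other cell types in the results was not tested.

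Fewer of the chromatin genes were detected per library before migration, as was the case for genes in general. Of the 41 rows, 30 to 39 were at 10 or more in migratory libraries, against 12, 25, 15 and 23 in premigratory replicates 1 to 4. As shares these were 73.2% to 95.1% in migratory and 29.3% to 61% in premigratory libraries, which do not overlap, and the same shares over all 12122 tested genes were 64% to 84.9% in migratory and 28.8% to 52.5% in premigratory libraries. In such small samples fewer cells of a type, less RNA per cell, and losses in capture, amplification or depth cannot be told apart.

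**Figure D1:**
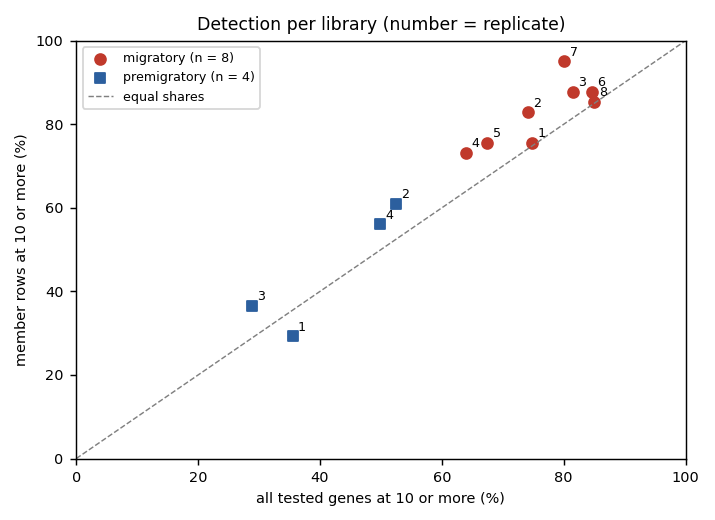
Percent of the 41 chromatin gene rows (vertical axis) against percent of all tested genes (horizontal axis) with a normalised value of 10 or more, one point per library with its replicate number. The 8 migratory libraries lie at 73.2% to 95.1% of rows and the 4 premigratory libraries at 29.3% to 61%, near the dashed line of equal shares.

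Migratory libraries were compared with premigratory libraries gene by gene, with limma on log2(value + 1) over the 12122 genes at 10 or more in at least 4 libraries. This filter favours genes present in migratory libraries alone, which need 4 of 8, over genes present in premigratory libraries alone, which need 4 of 4. Of the 41 rows, 39 passed. The fold changes below are migratory minus premigratory on that log2 scale, which understates changes of low genes. Of the 39 rows 4 were higher in migratory libraries at an adjusted p under 0.05 (10.3%), namely RNF2, 1 row each of BMI1 and CBX8, and DNMT1, and 0 were lower. Among all tested genes 1508 were higher (12.4%) and 16 lower (0.132%), so the share of rows called higher was near that of genes at large. An unadjusted p under 0.05 was reached by 9 rows in the higher direction (23.1%, against 31.8% of all tested genes) and by 0 in the lower (0.66% of all tested genes). The median fold change was 2.74 over the 39 rows and 2.67 over all tested genes, a general shift against which each value below is to be read. The shift depends on the scaling, with a median over all tested genes of 1.67 after trimmed mean of M values scaling, 1.85 after median of ratios scaling and 0.00 after quantile normalisation. It depends on the filter too. With no filter the medians were 2.58 over the 41 rows and 0.94 over 25095 genes, and with a filter of 10 in all 12 libraries they were -0.42 over 5 rows and 0.21 over 1153 genes. After quantile normalisation 0 of 39 rows were called higher (1.15% of all tested genes) and 0 lower (0.437%). After trimmed mean of M values scaling 1 row was higher (5.5%) and 1 lower (0.551%), and after median of ratios scaling also 1 higher (6.4%) and 1 lower (0.501%). The labels give the replicate number also as a batch, and with that number as a fixed block 0 rows and 0 of all tested genes passed (0%), a fit that leaves few residual degrees of freedom; an unadjusted p under 0.05 was then reached by 6 rows and by 2241 genes (18.5%) in the higher direction, and by 0 rows and 81 genes (0.668%) in the lower.

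**Figure D2:**
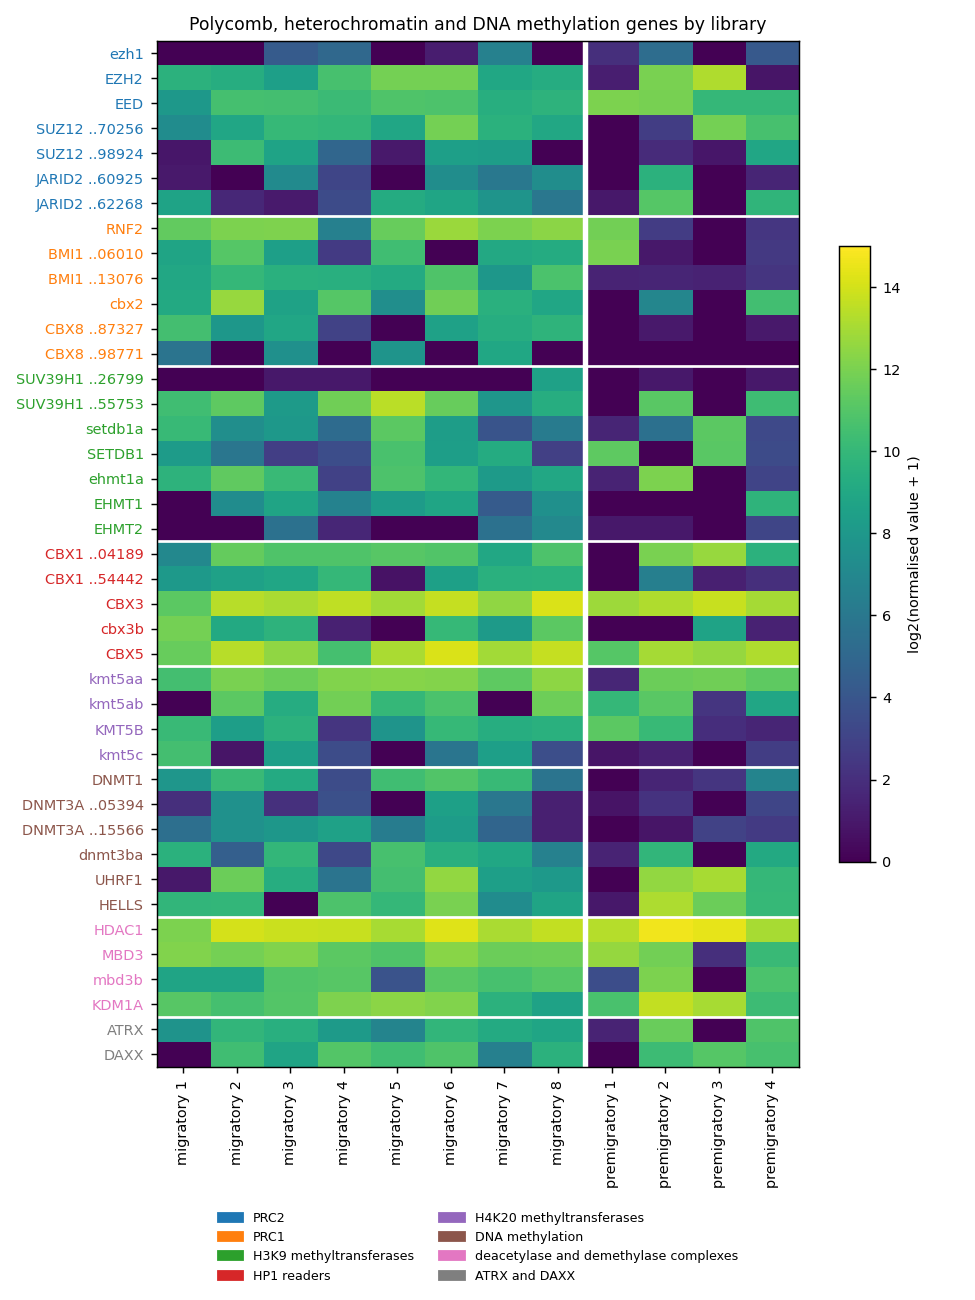
Log2(normalised value + 1) of each of the 41 rows (down the page, coloured by class, with the last digits of the Ensembl identifier where a symbol is shared) in the 8 migratory libraries on the left and the 4 premigratory libraries on the right. PRC1 rows are dark in most premigratory libraries, while CBX3, CBX5, HDAC1, EED and KDM1A are at 10 or more in all 12.

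PRC1 held 3 of the 4 rows that rose, which is 3 of its 6 rows (50%, against 12.4% of all tested genes). After trimmed mean of M values or median of ratios scaling 1 of the 6 was called, and after quantile normalisation 0. Of all tested genes 5.5%, 6.4% and 1.15% were called higher after these 3 scalings. The catalytic core RNF2, the PCGF subunit BMI1 and the chromatin reader CBX8 each had 1 row that was nearly absent from at least 3 of the 4 premigratory libraries and present in most migratory ones. The median fold change was 6.14 over the 6 PRC1 rows, and the lowest of the 6 was 3.58. Of the 6 rows 3 (50%) were at 10 or more in 0 premigratory libraries, as were 21.7% of all tested genes. They were both CBX8 rows and the called BMI1 row, which passed the filter through migratory libraries alone. The class count and median rest in part on them. The PRC1 median also lay above that of all tested genes after quantile normalisation (3.04 against 0.00), trimmed mean of M values scaling (5.49 against 1.67) and median of ratios scaling (5.44 against 1.85). These medians include the 3 rows that passed the filter through migratory libraries alone, so rescaling does not remove that selection. The remaining rows, RNF2, cbx2 and the BMI1 row not called, had fold changes of 7.14, 5.54 and 3.58, with RNF2 called. After quantile normalisation these were 5.41, 3.02 and 0.94, none of them called. No test of the class against other genes was made. In migratory replicates 3, 4 and 7, where muscle markers took 0.00698%, 0.00822% and 0.00454% of the total, the called BMI1 row stood at 747, 718 and 241, RNF2 at 4369, 93.1 and 4166, and the called CBX8 row at 477, 6.79 and 650. The part of muscle or other cell types in the PRC1 values was not tested.

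BMI1 (ENSDARG00000013076) separated the groups completely. Its values in migratory libraries had a lowest of 241, a median of 732 and a highest of 1884, against 1.77, 1.95, 1.74 and 3.89 in premigratory replicates 1 to 4. The log2 fold change was 7.89 (SE 1.35, adjusted p = 0.00177, and adjusted p = 0.177 with the replicate block). Within batches 1 to 4 the migratory library exceeded its premigratory partner by 7.55, 8.40, 8.09 and 7.20 on the log2 scale. All premigratory values of this row were under 10, so these differences largely follow the migratory levels. This BMI1 row was the 1 row of 39 whose groups did not overlap (2.56%, against 4.83% of all tested genes that were separated upwards and 0.14% downwards). The call held without any single library, with adjusted p of 0.000881 to 0.00549, and was lost after quantile normalisation (log2 fold change 3.07, adjusted p = 0.265).

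The other BMI1 row (ENSDARG00000006010) did not follow this pattern. It ran from 0 through a median of 476 to 2150 in migratory libraries, against 3989, 0.989, 0 and 4.64 in premigratory replicates 1 to 4, so its highest value of all was in a premigratory library. The fold change was 3.58 (SE 2.48, adjusted p = 0.323). It was under 10 in migratory replicates 4 and 6, where the first row stood at 718 and 1884.

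RNF2, the ubiquitin ligase of the complex, had a lowest of 93.1, a median of 4224 and a highest of 6842 in migratory libraries, against 3525, 5.43, 0 and 4.12 in premigratory replicates 1 to 4. The 7 migratory libraries other than replicate 4 were at 2694 or more. Premigratory replicate 1, the library richest in epidermis markers (9.84% of the total), was the 1 premigratory library with RNF2 at 10 or more, as it was for the second BMI1 row. Epidermis markers took 3.65% in premigratory replicate 4, where RNF2 was at 4.12 and the second BMI1 row at 4.64. The part of epidermis cells in these values was not tested. The log2 fold change was 7.14 (SE 1.88) at an adjusted p of 0.0229, which became 0.222 with the replicate block. Leaving out premigratory replicate 1 gave 9.67 (adjusted p = 0.000752). The call was lost without premigratory replicate 3 (adjusted p = 0.0758) or replicate 4 (adjusted p = 0.0523), after quantile normalisation (adjusted p = 0.0657), trimmed mean of M values scaling (0.0632) and median of ratios scaling (0.0609). Within batches 1 to 4 the differences were -0.39, 9.38, 12.09 and 4.20.

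CBX8 (ENSDARG00000087327), a chromodomain subunit, ran from 0 through a median of 430 to 1493 in migratory libraries, against 0, 1, 0 and 1 in premigratory replicates 1 to 4. The 2 migratory libraries under 10 were replicates 4 and 5, with 6.79 and 0. The log2 fold change was 6.75 (SE 1.92, adjusted p = 0.0324, and 0.177 with the replicate block), with differences of 10.55, 6.92, 8.90 and 1.96 within batches 1 to 4. The call was lost without migratory replicate 3, 7 or 8 (adjusted p = 0.0507, 0.0514 and 0.0518) or premigratory replicate 1, 3 or 4 (adjusted p = 0.0723, 0.086 and 0.057), with a pseudocount of 10 (0.0742) or no filter (0.078), and after each of the 3 other scalings (adjusted p = 0.0535 to 0.208). The other CBX8 row (ENSDARG00000098771) had no value above 0 in any premigratory library. It was listed at 0 in migratory replicates 2, 4, 6 and 8 and stood at 54.1, 182, 214 and 481 in migratory replicates 1, 3, 5 and 7. The related subunit cbx2 had a lowest of 167, a median of 645 and a highest of 6694 in migratory libraries, against 0, 117, 0 and 1418 in premigratory replicates 1 to 4. Its fold change of 5.54 (SE 1.94) did not pass (adjusted p = 0.0679), passed without premigratory replicate 4 (7.58, adjusted p = 0.018), and was 3.02 after quantile normalisation (adjusted p = 0.392).

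**Figure D3:**
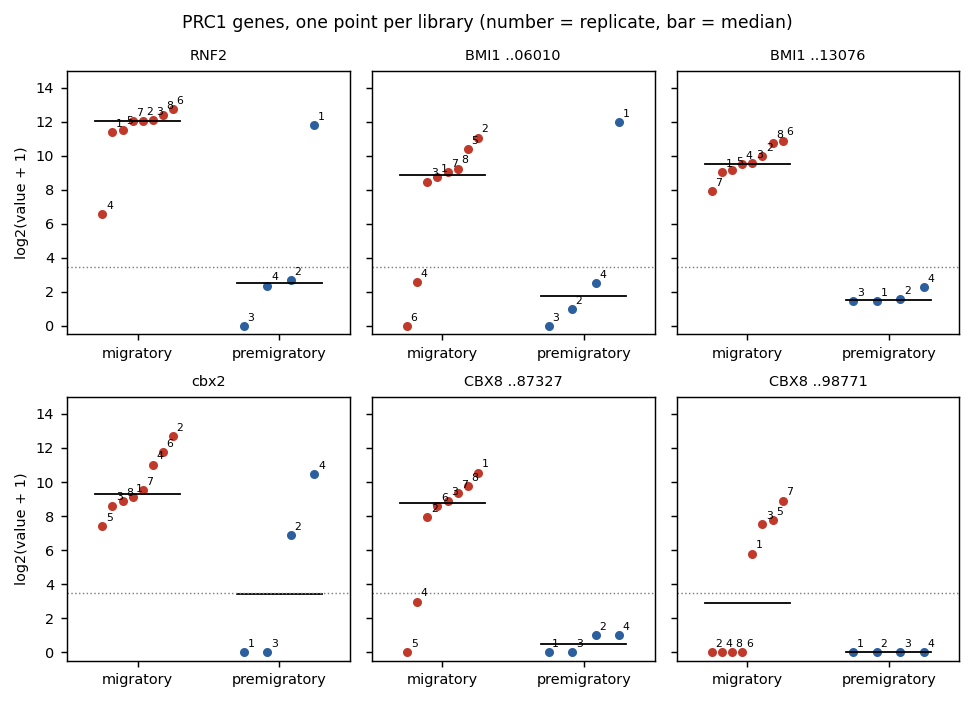
Log2(value + 1) of the 6 PRC1 rows in migratory (left, red) and premigratory (right, blue) libraries, one point per library with its replicate number, a bar at the group median and a dotted line at a value of 10. BMI1 (ENSDARG00000013076) alone has no overlap between groups, and premigratory replicate 1 lies among the migratory libraries for RNF2 and above them for the other BMI1 row.

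Other PRC1 genes were followed in a list of 26 names, of which 18 rows were tested. They had a median fold change of 3.99, and phc2a, a Polyhomeotic subunit that lets PRC1 polymerise, was the 1 called higher (5.56%, against 12.4% of all tested genes), with 0 called lower. An unadjusted p under 0.05 was reached by 10 of the 18 in the higher direction and 0 in the lower, where 31.8% of all tested genes reached it in the higher. It had a lowest of 317, a median of 815 and a highest of 2807 in migratory libraries, against 0, 0, 0 and 10.6 in premigratory replicates 1 to 4. The groups did not overlap, with migratory values the higher, as for 4.83% of all tested genes. The fold change was 8.83 (SE 1.44, adjusted p = 0.00127, or 0.169 with the replicate block). It was not called after quantile normalisation (5.81, adjusted p = 0.0655).

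Of the 7 PRC2 rows 0 passed the test in either direction, nor did any reach an unadjusted p under 0.05, and the median fold change was 1.21, below the general shift. The class median stayed below that of all tested genes under the other scalings, at 0.66 after trimmed mean of M values scaling, 0.66 after median of ratios scaling and -1.04 after quantile normalisation, where its sign turned. For 5 of the 7 rows the highest of all 12 values was in a premigratory library, as for 35.3% of all tested genes.

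The catalytic subunit EZH2 had a lowest of 351, a median of 721 and a highest of 3687 in migratory libraries, against 1.36, 4076, 9590 and 0.802 in premigratory replicates 1 to 4. All 8 migratory values lay between the 2 low and the 2 high premigratory ones. The log2 fold change of 3.18 (SE 2.10, adjusted p = 0.297) therefore averages premigratory libraries far above and far below the migratory range, and the within-batch differences were 8.39, -2.64, -4.77 and 9.78. The alternative enzyme ezh1 was low, at 96.7 or less in migratory and 40 or less in premigratory libraries, with a fold change of -0.74 (SE 1.58, adjusted p = 0.769).

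The scaffold SUZ12 (ENSDARG00000070256) ran from 154 to 3731 with a median of 645 in migratory libraries, against 0, 5.5, 3779 and 1617 in premigratory replicates 1 to 4. Like EZH2 it was nearly absent from premigratory replicate 1 and high in replicate 3, whereas in replicates 2 and 4 the 2 genes were high and low in opposite order. It had a fold change of 3.12 (SE 1.97, adjusted p = 0.277). The second SUZ12 row (ENSDARG00000098924) was at 10 or more in 5 migratory and 1 premigratory library (2.42, SE 2.28, adjusted p = 0.481). EED, which reads the mark that PRC2 sets, was the PRC2 gene present throughout. It had 250 to 1882 with a median of 1349 in migratory libraries, against 4171, 3941, 1006 and 1005 in premigratory ones, where replicates 1 and 2 exceeded every migratory library. Its fold change was -0.96 (SE 0.94, adjusted p = 0.502). The 2 JARID2 rows were at 10 or more in 4 and 5 migratory and in 1 and 2 premigratory libraries, and their highest values, 782 and 2148, were both in premigratory replicate 2. Their fold changes were 1.21 (SE 2.09, adjusted p = 0.714) and 0.37 (SE 2.37, adjusted p = 0.93).

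Among 6 other PRC2 names 3 rows were tested, with a median fold change of 0.59 and 0 calls in either direction (unadjusted p under 0.05 for 0). The erasers of the Polycomb marks, such as the H3 demethylase kdm6 genes and the H2A deubiquitinase bap1, had 6 tested rows with a median of 1.13 and 0 calls (unadjusted p under 0.05 for 0). Trithorax genes, which oppose Polycomb, had 2 of 18 rows called higher (11.1%, against 12.4% of all tested genes) and 0 lower, with a median of 2.43. These were CXXC1, a DNA-binding subunit of the H3 methyltransferase complexes, at 516 to 1330 in migratory libraries, against 0, 2.9, 2 and 6.92 in premigratory ones, and RBBP5, a core subunit, at 239 to 1949 in migratory libraries, against 0, 0, 0 and 14.1. The groups did not overlap for either, as for 4.83% of all tested genes. CXXC1 was at 10 or more in 0 premigratory libraries, as were 21.7% of all tested genes, and passed the filter through migratory libraries alone. CXXC1 had a fold change of 7.99 (SE 1.35, adjusted p = 0.00162, or 0.177 with the replicate block) and RBBP5 one of 8.35 (SE 1.46, adjusted p = 0.00201, or 0.172 with the replicate block). Both calls were lost after quantile normalisation (3.47, adjusted p = 0.212, for CXXC1 and 4.92, adjusted p = 0.111, for RBBP5).

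**Figure D4:**
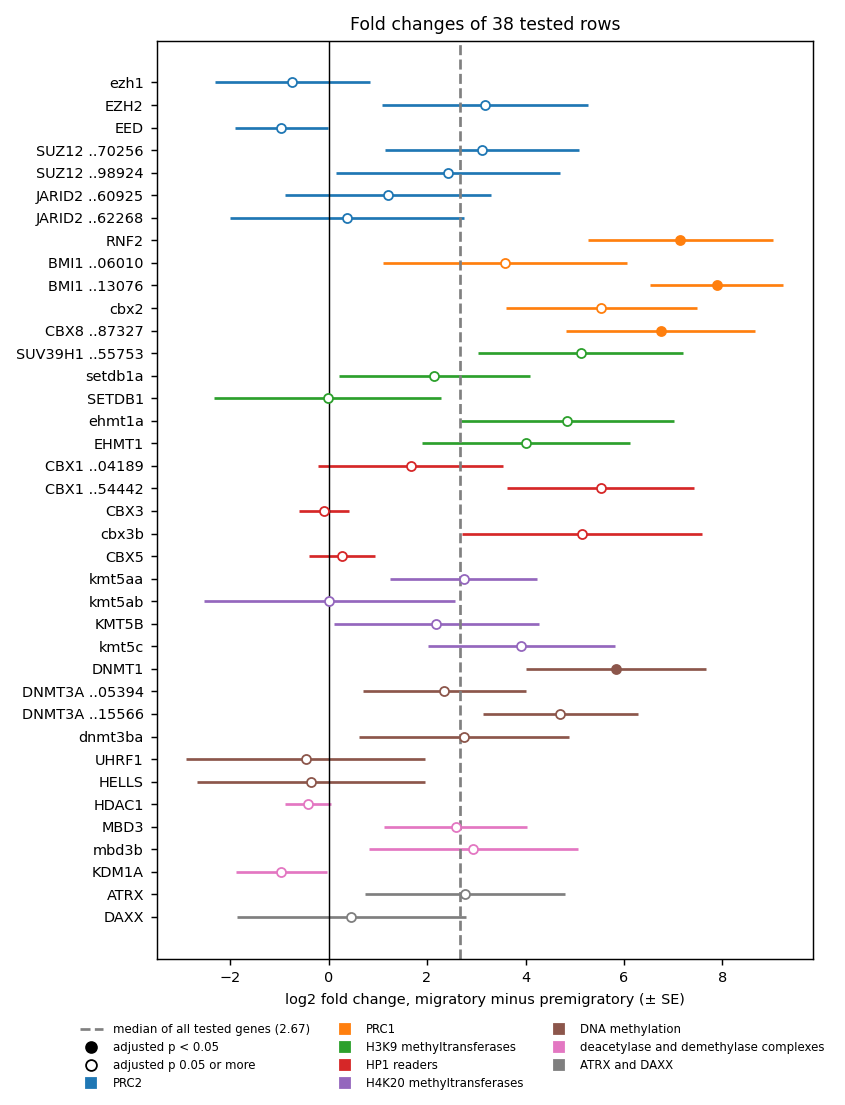
Log2 fold change (migratory minus premigratory) ± SE for 38 tested rows, leaving out the CBX8 row listed at 0 throughout premigratory libraries, with filled points at an adjusted p under 0.05. The dashed line is the median of all tested genes, 2.67, and the 5 PRC1 rows shown all lie to its right while 8 rows (ezh1, EED, SETDB1, CBX3, UHRF1, HELLS, HDAC1 and KDM1A) lie below 0.

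The H3K9 methyltransferases had 0 of 5 tested rows called in either direction, with a median fold change of 4.01, or 0.95 after quantile normalisation. SUV39H1 (ENSDARG00000055753), the enzyme of constitutive heterochromatin, had a lowest of 231, a median of 1945 and a highest of 11322 in migratory libraries, against 0, 2260, 0 and 1277 in premigratory replicates 1 to 4. It was thus listed at 0 in 2 premigratory libraries and inside the migratory range in the other 2, and its fold change was 5.12 (SE 2.09, adjusted p = 0.107, and 0.0365 without premigratory replicate 2). Its highest value was in migratory replicate 5, the library rich in blood markers. The second SUV39H1 row (ENSDARG00000026799) did not pass the filter, being at 384 in migratory replicate 8 and under 1 in the other 11 libraries.

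The EHMT enzymes, which lay down H3K9 methylation in euchromatin, were sparse in premigratory libraries. The gene ehmt1a had a lowest of 6.54, a median of 895 and a highest of 2604 in migratory libraries, against 1.77, 4158, 0 and 7.52 in premigratory ones. EHMT1 ran from 0 through 168 to 455 in migratory libraries, against 0, 0, 0 and 862. Each was at 10 or more in 7 migratory libraries and in 1 premigratory library, a different one for each gene, and that library held the highest value of all. Their fold changes were 4.85 (SE 2.16, adjusted p = 0.134, and 0.0179 without premigratory replicate 2) and 4.01 (SE 2.12, adjusted p = 0.195, and 0.0437 without premigratory replicate 4). EHMT2 did not pass the filter, with at most 131 in migratory and 7.73 in premigratory libraries.

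For SETDB1, the enzyme that silences repeats, the 2 genes were setdb1a and a row named SETDB1. The gene setdb1a had a lowest of 13.6, a median of 212 and a highest of 2380 in migratory libraries, against 1.96, 45.1, 2352 and 9.05 in premigratory ones, and SETDB1 had 6, 176 and 1649, against 2441, 0, 2330 and 9.79. Premigratory replicate 3 was high for both, and replicate 1 for SETDB1 alone. The fold changes were 2.15 (SE 1.95, adjusted p = 0.461) and -0.02 (SE 2.31, adjusted p = 0.997). Among other genes of the H3K9 pathway 1 of 11 tested rows was called higher (9.09%), morc3a (7.29, SE 1.91, adjusted p = 0.0225, and 0.218 with the replicate block), with a list median of 3.48. After quantile normalisation morc3a was not called (adjusted p = 0.238). Among H3K9 demethylases 2 of 10 were called higher (20%, against 12.4% of all tested genes), kdm4ab (7.25, SE 1.51, adjusted p = 0.00736, and 0.197 with the replicate block) and PHF2 (6.55, SE 1.80, adjusted p = 0.0278, and 0.243 with the replicate block), with a median of 2.78 and 0 lower in either list. In premigratory replicates 1 to 4 kdm4ab was at 0, 2.75, 0 and 2.33, and PHF2 at 0, 3.65, 0 and 1.57. Both rows thus passed the filter through migratory libraries alone, and the 20% rests on them. Of all tested genes 21.7% were at 10 or more in 0 premigratory libraries. The PHF2 call was lost after trimmed mean of M values scaling (0.0568) and median of ratios scaling (0.0539), and both calls after quantile normalisation (adjusted p = 0.164 for kdm4ab and 0.286 for PHF2).

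The HP1 readers fell into a constant and a variable set. CBX3 had a lowest of 2412, a median of 9783 and a highest of 18210 in migratory libraries, against 7166, 9400, 13549 and 7933 in premigratory replicates 1 to 4, all 4 within the migratory range. CBX5 had 1504, 8291 and 18261 in migratory libraries, against 2149, 7929, 6316 and 9625, again all within range. Their fold changes of -0.10 (SE 0.51, adjusted p = 0.909) and 0.27 (SE 0.67, adjusted p = 0.808) had the smallest standard errors of the 39 rows after HDAC1. Both values depended on the scaling. The CBX3 value was -1.50 (SE 0.59, adjusted p = 0.122) after trimmed mean of M values scaling. After median of ratios scaling it was -1.26 (SE 0.50, adjusted p = 0.124). The CBX5 value turned to -1.13 after trimmed mean of M values scaling, -0.89 after median of ratios scaling and -0.47 with the replicate block.

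The HP1 rows under 10 in some libraries were those of CBX1 and cbx3b. CBX1 (ENSDARG00000004189) had 126, 1874 and 2786 as lowest, median and highest in migratory libraries, against 0, 4025, 6692 and 803 in premigratory ones (1.67, SE 1.88, adjusted p = 0.562). CBX1 (ENSDARG00000054442) had 0.662, 426 and 1035, against 0, 89.7, 1.47 and 3.03. In 7 of 8 migratory libraries this second row was at 265 or more, above every premigratory one, and the exception was migratory replicate 5. Its fold change was 5.53 (SE 1.90, adjusted p = 0.0639), and it was called without migratory replicate 5 (6.57, adjusted p = 0.0151) or without premigratory replicate 2 (6.88, adjusted p = 0.0331). It was not called after quantile normalisation (adjusted p = 0.632). The gene cbx3b was at 10 or more in 6 migratory libraries and in premigratory replicate 3 alone (5.15, SE 2.44, adjusted p = 0.155).

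The H4K20 methyltransferases had 0 of 4 rows called and a median fold change of 2.46, or -0.16 after quantile normalisation. The gene kmt5aa, which sets the monomethyl mark of chromosome condensation, had a lowest of 1460, a median of 4251 and a highest of 5677 in migratory libraries, against 2.03, 3218, 3423 and 2471 in premigratory replicates 1 to 4. Apart from premigratory replicate 1 its values stayed within the migratory range, and the fold change was 2.74 (SE 1.49, adjusted p = 0.205), or 0.25 without that library. Its paralog kmt5ab was listed at 0 in migratory replicates 1 and 7 and reached 3599 and 2279 at most in migratory and premigratory libraries (0.01, SE 2.55, adjusted p = 0.999). KMT5B and kmt5c, enzymes that extend the mark, were at 10 or more in 7 and 6 migratory libraries and in 2 and 0 premigratory ones. Their fold changes were 2.19 (SE 2.09, adjusted p = 0.489) and 3.91 (SE 1.90, adjusted p = 0.162).

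Among the DNA methylation genes, the rows of DNMT1 and DNMT3A were low in most premigratory libraries, whereas UHRF1 and HELLS, which guide and open chromatin for DNMT1, were high in premigratory replicates 2 to 4. The methyltransferase gene dnmt3ba was high in premigratory replicates 2 and 4. Both DNMT3A rows, 2 of the 6 of the class (33.3%), were at 10 or more in 0 premigratory libraries, as were 21.7% of all tested genes. They passed the filter through migratory libraries alone, and the contrast with UHRF1 and HELLS rests in part on them. The class had 1 of 6 rows called higher (16.7%, against 12.4% of all tested genes) and 0 lower, with a median fold change of 2.55, or -0.80 after quantile normalisation.

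DNMT1, the maintenance methyltransferase, had a lowest of 10, a median of 829 and a highest of 1916 in migratory libraries, against 0, 1.89, 3.88 and 106 in premigratory replicates 1 to 4. Premigratory replicate 4 lay above migratory replicates 4 and 8, so the groups overlapped. The log2 fold change was 5.84 (SE 1.83, adjusted p = 0.0457, and 0.323 with the replicate block), and the within-batch differences were 7.88, 8.61, 6.87 and -3.28. The call was the least stable of the 4. It held in 4 of 23 alternatives, namely a pseudocount of 0.5 (adjusted p = 0.0413), the replicate number as a random block (0.0449), and without migratory replicate 4 (0.0175) or premigratory replicate 4 (0.0253). After quantile normalisation the fold change was 2.03 and not called. Without migratory replicate 1, 2, 3, 5, 6, 7 or 8 the adjusted p was 0.0501, 0.0656, 0.0701, 0.0577, 0.0739, 0.0723 and 0.0508, and without premigratory replicate 1, 2 or 3 it was 0.11, 0.0784 and 0.101.

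The new-methylation enzyme DNMT3A (ENSDARG00000015566) had 1.54, 135 and 385 as lowest, median and highest in migratory libraries, against 0, 0.805, 6.75 and 4.81 in premigratory ones. The 7 migratory libraries other than replicate 8 were at 28.5 or more, above all premigratory ones. Within batches 1 to 4 the differences were 5.46, 6.74, 4.98 and 6.05, with all premigratory values under 10. The fold change was 4.71 (SE 1.58, adjusted p = 0.0582), and it passed without migratory replicate 8 (5.42, adjusted p = 0.0342). After quantile normalisation it was 0.17 (adjusted p = 0.967). The second DNMT3A row (ENSDARG00000005394) was at 10 or more in 4 migratory and 0 premigratory libraries (2.35, SE 1.66, adjusted p = 0.331). The gene dnmt3ba had 8.7, 595 and 1595 in migratory libraries, against 1.81, 951, 0 and 550 (2.75, SE 2.14, adjusted p = 0.384).

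UHRF1, which recognises DNA methylated on the old strand alone behind the replication fork, had 0.969, 506 and 6112 as lowest, median and highest in migratory libraries, against 0, 6013, 8276 and 1025 in premigratory replicates 1 to 4. HELLS, a chromatin remodeller needed for DNA methylation, had 0, 950 and 4076, against 0.989, 9172, 3123 and 1045. For both genes premigratory replicates 2 to 4 lay above the migratory median and replicate 1 was under 1. The fold changes of -0.47 (SE 2.42, adjusted p = 0.913) and -0.36 (SE 2.32, adjusted p = 0.932) became -3.43 and -3.01 without premigratory replicate 1, and 0.90 and 0.53 without premigratory replicate 3. No alternative called either gene.

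**Figure D5:**
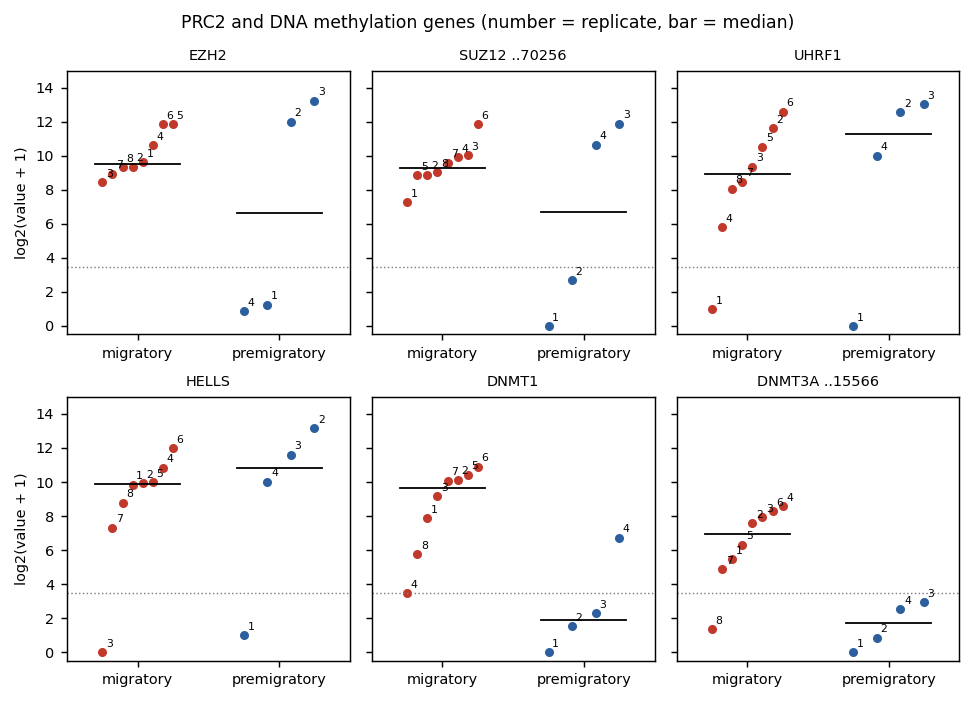
Log2(value + 1) of 2 PRC2 and 4 DNA methylation rows in migratory (left, red) and premigratory (right, blue) libraries, one point per library with its replicate number, a bar at the group median and a dotted line at a value of 10. For EZH2 all 8 migratory libraries lie between 2 low and 2 high premigratory ones. For UHRF1 and HELLS premigratory replicates 2 to 4 lie above the migratory median. DNMT1 is under 10 in premigratory replicates 1 to 3, and DNMT3A (ENSDARG00000015566) is under 10 in premigratory replicates 1 to 4.

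Other DNA methylation genes, among them the Tet enzymes that oxidise methylcytosine, had 0 of 12 tested rows called in either direction, with a median fold change of 1.03 and an unadjusted p under 0.05 for 2 higher and 0 lower. UHRF1, HELLS and EZH2 are known to be expressed with DNA replication. The 26 tested proliferation rows had a median fold change of 0.44, which turned to -0.96, -0.72 and -0.31 after trimmed mean of M values scaling, median of ratios scaling and quantile normalisation, with CDC45, a replication fork helicase factor, the 1 called higher (7.40, SE 2.24, adjusted p = 0.0402, and 0.248 with the replicate block), a call that held in 5 of 23 alternatives, and 0 lower. After each of the first 2 of these scalings 4 were called lower, namely MCM2, MCM6, MCM7 and mki67. Of all tested genes 0.551% and 0.501% were lower there. In the main fit an unadjusted p under 0.05 was reached by 4 rows in the higher direction (31.8% of all tested genes). In the lower direction it was reached by the same MCM2, MCM6, MCM7 and mki67 rows (0.66% of all tested genes). The mean level of the proliferation rows on the log2 scale was 7.53 to 11.76 in migratory libraries, against 7.86, 11.21, 8.09 and 9.31 in premigratory replicates 1 to 4. The lowest premigratory levels were thus those of replicates 1 and 3. In premigratory replicate 1 the replication clamp PCNA was at 4512, the cell cycle kinase CDK1 at 5064 and MCM2 at 7768. The RRM2 rows stood at 20461 and 14290 there. In the same library plk1, CDT1, CCNB2 and CDC45 were listed at 0, and MCM3, TYMS and BIRC5 were at 2.98, 0.99 and 1.01. In premigratory replicate 3, where UHRF1 was at 8276, CDT1, CCNB2 and CDC45 were listed at 0 too, while plk1 was at 9009 and MCM3 at 19073. The part of cell cycle state in the values above was not tested.

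The 4 rows of deacetylase and demethylase genes were at 10 or more in all 8 migratory libraries, and at 10 or more in premigratory replicates 1, 2 and 4 too. HDAC1, the deacetylase shared by several repressor complexes, had a lowest of 4150, a median of 13275 and a highest of 19920 in migratory libraries, against 10134, 26343, 22596 and 8356 in premigratory replicates 1 to 4. Premigratory replicates 2 and 3 exceeded every migratory library. The fold change of -0.42 (SE 0.46, adjusted p = 0.555) was not a call, but HDAC1 was called lower after trimmed mean of M values scaling (-1.82, adjusted p = 0.0455; 67 of 12156 genes, 0.551%, were lower there) and median of ratios scaling (-1.57, adjusted p = 0.0365; 59 of 11767 genes, 0.501%). It was the 1 member called lower under any alternative.

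KDM1A, the H3 demethylase of the CoREST complex, showed the same arrangement, with 391, 2112 and 5270 as lowest, median and highest in migratory libraries, against 1686, 12528, 8388 and 1242 in premigratory ones (-0.96, SE 0.92, adjusted p = 0.488). MBD3 and mbd3b, subunits of the NuRD complex, were low in premigratory replicate 3, at 3.1 and 0. Their values were 1890 to 5205 and 13.5 to 2333 in migratory libraries, against 6259, 3652 and 1155 for MBD3 and 10.9, 4230 and 1746 for mbd3b in premigratory replicates 1, 2 and 4. The fold changes were 2.58 (SE 1.45, adjusted p = 0.222) and 2.94 (SE 2.12, adjusted p = 0.344). For all 4 genes the highest library was premigratory, and the class median fold change was 1.08, or -0.28 and -0.05 after trimmed mean of M values and median of ratios scaling and -0.05 after quantile normalisation. Of 17 other tested rows of these complexes HDAC8 was called higher (5.95, SE 1.83, adjusted p = 0.0434, and 0.239 with the replicate block), which is 5.88% against 12.4% of all tested genes, and 0 lower, with a median of 2.16. HDAC8 had 242 to 4732 with a median of 1035 in migratory libraries, against 0.916, 1994, 4.53 and 0.896 in premigratory replicates 1 to 4. Within batches 1 to 4 the differences were 7.59, -1.12, 7.95 and 11.29. The HDAC8 call held in 5 of 23 alternatives. It was lost after trimmed mean of M values scaling (adjusted p = 0.112), median of ratios scaling (0.0936) and quantile normalisation (0.505). After each of the first 2 of these 1 row of the list was called lower (0.551% and 0.501% of all tested genes).

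ATRX and DAXX, which together place histone H3.3 in silent chromatin, had 0 calls. DAXX had a lowest of 0, a median of 1068 and a highest of 2062 in migratory libraries, against 0, 1263, 2085 and 1578 in premigratory replicates 1 to 4 (0.46, SE 2.33, adjusted p = 0.91, and -0.81 after quantile normalisation). It was listed at 0 in migratory replicate 1 and premigratory replicate 1 alone. ATRX had 109, 509 and 950, against 1.78, 2988, 0 and 1858 (2.77, SE 2.04, adjusted p = 0.357). Premigratory replicates 2 and 4 thus exceeded every migratory library while replicates 1 and 3 lay below all of them. Histone chaperones outside this pair had 0 of 11 tested rows called, with a median of 1.17 and an unadjusted p under 0.05 for 1 higher and 0 lower. After trimmed mean of M values scaling 1 of the 11 was called lower (0.551% of all tested genes), and the median was -0.22. After median of ratios scaling 1 was called lower too (0.501%), and the median was 0.03.

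Across the 41 rows the premigratory libraries varied more than the migratory ones. The mean level of all rows on the log2 scale was 8.08 ± 0.71 over the 8 migratory libraries (SD) and 5.52 ± 1.61 over the 4 premigratory ones (SD). Over all tested genes it was 7.18 ± 0.69 in migratory and 4.45 ± 0.92 in premigratory libraries. The levels of all 41 rows, of all tested genes (6.11 to 8.17 in migratory and 3.36 to 5.37 in premigratory libraries) and of all genes did not overlap between groups. Among the 8 classes PRC1 had such separate levels too, at 5.43 to 9.46 in migratory libraries, against 4.20, 2.19, 0.24 and 3.10 in premigratory replicates 1 to 4. The PRC2 level was 5.07 to 8.63, against 2.32, 7.79, 5.14 and 6.56, and the DNA methylation level 5.32 to 10.29, against 0.55, 6.70, 4.98 and 6.93. H3K9 methyltransferases stood at 4.67 to 7.77, against 2.18, 4.37, 3.20 and 4.86. Premigratory replicate 1 was the lowest of all 12 libraries for PRC2, H3K9 methyltransferase, HP1, DNA methylation and ATRX and DAXX genes, yet the highest premigratory library for PRC1. For 19 of the 39 tested rows (48.7%) the highest of the 12 values was premigratory, against 35.3% of all tested genes.

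The 5 rows at 10 or more in all 12 libraries, EED, CBX3, CBX5, HDAC1 and KDM1A, had a median fold change of -0.42, where the 1153 genes of the table with such values had 0.21. Premigratory replicate 1 moved the level of the whole set. Without it the median of the 39 rows was 1.54, against 2.53 for the genes tested then, and RNF2 and BMI1 (ENSDARG00000013076) were the 2 rows called (1101 of 11912 genes, 9.24%, were higher and 19, 0.16%, lower). Without that library and migratory replicate 5 together, chosen after the data were seen, 4 rows were called higher (1237 of 11459 genes, 10.8%), namely these 2, CBX8 (ENSDARG00000087327) and CBX1 (ENSDARG00000054442), and the median was 1.35 against 2.62.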

How the data were processed

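The authors deposited 1 table of normalised counts, treated here as normalised signal because its values are not whole numbers. Per the submitters' processing notes, fastp 1.0, Salmon and the build GRCz11 were involved, and the way of normalisation is not given in the sources used here. Per the labels' protocols, cDNA was made with SMART-Seq v4 and libraries by Nextera tagmentation. Of values under 6, 10.2% to 36.1% per library were whole multiples of the best step within a tolerance of 0.02 steps, so whole reads were not recovered and no count model was run. Depth is known only from the sums of the deposited signal, and amplified reads are not independent molecules.

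Of 25878 gene identifiers 23604 had a symbol in the name table, and the number of columns left out was 0. Libraries were compared in limma 3.58.1 (R 4.3.3; lmFit, eBayes with trend) on log2(value + 1), with Benjamini-Hochberg adjustment over 12122 genes at 10 or more in at least 4 libraries. Detection was compared by exact permutation of libraries. Libraries are labelled as biological replicates, and a p-value here reflects no more than the variation among them. No set test was made. Members and lists were chosen with earlier results of these data known. Values in every library are given at least for called rows, their paralogs and the row with the highest mean in each class. The test was tested on simulated data. These were normal values drawn independently around each gene's mean, without the many zeros and the general shift of these libraries. How the test behaves with those was not tested. Other steps used scipy 1.17.1, pandas 2.3.3, numpy 2.4.6 and Python 3.11.15, with figures from matplotlib 3.10.9.

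The labels give the replicate number as a batch. Libraries of both groups numbered 1 to 4 were treated as pairs in the replicate block and the within-batch differences alone. The main comparison did not use the number. Deviations from group means correlated at 0.155, 0.0118, 0.0424 and 0.0342 for these pairs (mean 0.0608, and -0.00871 for different numbers). Batches 5 to 8 hold migratory libraries only. Alternatives covered the pseudocount, filter, scaling, library weights, replicate block and leaving out libraries. The trimmed mean of M values and median of ratios were computed on the deposited values.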

Additional observations from a re-analysis of the deposited data

Results flagged for a closer look

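The 13 member rows checked here were called rows, their paralogs and the row with the highest mean in each class. In 26 groups of values (these rows in each of the 2 groups of libraries), 5 had a library far from the others on the log2 scale. The nominal rate by chance is about 1 in 20 groups. These groups share the same libraries and hold values at or near 0, so that rate may not apply to them. RNF2 was at 93.1 in migratory replicate 4, while the other 7 migratory libraries were at 2694 or more. BMI1 (ENSDARG00000013076) was at 3.89 in premigratory replicate 4, above 1.74 to 1.95 in the others, all under 10. The gene kmt5aa was at 2.03 in premigratory replicate 1, against 2471 or more in the other 3. DAXX was listed at 0 in migratory replicate 1 and at 0 in premigratory replicate 1.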

How the results depend on the processing

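The depth of these 20-cell libraries and the scaling limit every statement above. Genes called over the whole table numbered 1508 higher and 16 lower. They were 821 higher with a pseudocount of 10, 851 and 7 with no filter, 9 and 2 when all 12 libraries had to reach 10, 139 and 53 after quantile normalisation, 668 and 67 after trimmed mean of M values scaling, 753 and 59 after median of ratios scaling, and 5 lower with library weights. With the replicate number as a fixed replicate block they were 0 and 0 (2241 and 81 at an unadjusted p under 0.05). Leaving out single libraries gave 771 to 1911 higher and 6 to 19 lower, with 771 and 6 without premigratory replicate 3, and with 7 to 10 lower without migratory replicate 2, 3, 7 or 8 or premigratory replicate 2. Members called higher, 4 in the main comparison, were 2 with a pseudocount of 10 or no filter, 0 when all 12 libraries had to reach 10, after quantile normalisation or with the fixed replicate block, 1 after trimmed mean of M values or median of ratios scaling, and 1 to 6 without single libraries (1 without premigratory replicate 3, 2 without migratory replicate 3 or 7 or premigratory replicate 1, 6 without premigratory replicate 2). Members called lower were 1 instead of 0 after trimmed mean of M values and median of ratios scaling (HDAC1). The number of genes at 10 or more differed by 4457 to 5534 without single libraries and by 4362 at a threshold of 1 (exact permutation p = 0.0646). The cause of these differences was not tested.

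Differences in level between groups moved by more than 1 SD of the migratory libraries as follows. After quantile normalisation over all rows they were 0.14 for all genes, 0.80 for all members, -0.63 for PRC2, 3.96 for PRC1, 0.65 for H3K9 and 0.24 for H4K20 methyltransferases, 0.11 for DNA methylation and 0.04 for deacetylase and demethylase genes. With a pseudocount of 10 they were 0.97 for all genes, 1.68 for all members and 4.08 for PRC1.

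Fold changes that turned sign were all of rows not called. After quantile normalisation they were -0.68 for SUZ12 (ENSDARG00000098924), -1.04 and -2.72 for the JARID2 rows ENSDARG00000060925 and ENSDARG00000062268, -1.41 for setdb1a, -1.92 for kmt5ab, -0.52 for KMT5B, -1.53 for DNMT3A (ENSDARG00000005394), -0.07 for dnmt3ba, -0.72 for ATRX and -0.81 for DAXX. After trimmed mean of M values and median of ratios scaling they were -0.44 and -0.37 for JARID2 (ENSDARG00000062268), -1.13 and -0.89 for CBX5, -1.24 and -1.01 for kmt5ab and -0.64 and -0.46 for DAXX. Library weights gave -1.28 for that JARID2 row, 0.52 for SETDB1, 0.02 for CBX3, -0.49 for kmt5ab and -0.15 for DAXX. The fixed replicate block gave -1.73 for that JARID2 row, -0.47 for CBX5, -0.01 for kmt5ab and -0.44 for DAXX. A pseudocount of 0.5 gave 0.21 for SETDB1 and -0.20 for kmt5ab, and one of 10 gave -0.40 for that JARID2 row. Without premigratory replicate 1 and migratory replicate 5 together, chosen after the data were seen, the values were -1.61 for that JARID2 row, 0.97 for SETDB1, -1.31 for CBX1 (ENSDARG00000004189), -0.25 for CBX5 and -2.48 for DAXX. Leaving out single libraries gave -1.71 to 0.08 for ezh1, -1.45 to 2.24 for that JARID2 row, -2.17 to 1.58 for SETDB1, -1.19 to 3.04 for CBX1 (ENSDARG00000004189), -0.26 to 0.16 for CBX3, -0.20 to 0.58 for CBX5, -1.92 to 1.16 for kmt5ab, -3.43 to 0.90 for UHRF1, -3.01 to 1.05 for HELLS and -2.20 to 1.67 for DAXX.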
